A study of Homo sapiens with 12 samples.

Results

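The LY6 and LYPD genes described here are LY6E, LY6D, LY6K, LY6H, LYPD1, LYPD3, LYPD6, LYPD6B, PSCA and CD59, 10 of the 38434 named genes in the count tables of both cell lines, LK-2 and RERF-LC-AI. They were picked by gene symbol, and the choice was made with the maspin against ctrl results of both lines in view. Their changes with maspin are therefore given as values without p-values, and where a gene is said to have been called across all genes, this describes the choice and supports nothing. Both lines are human lung squamous cell carcinoma (LUSC) lines. All cells of the study carried a lentiviral vector and were selected with blasticidin. LK2-ctrl and LC-AI-ctrl cells expressed ZsGreen, a fluorescent protein, and LK2-maspin and LC-AI-maspin cells expressed maspin and ZsGreen from Maspin-P2A-ZsGreen. Maspin is a serpin, the product of SERPINB5. Each of the 4 groups had 3 libraries and was a pool of surviving clones, not a single clone. LK-2 cells grew in RPMI1640 and RERF-LC-AI cells in Eagle's minimum essential medium. The sources used here do not say if the 3 libraries of a group were separate cultures, so p-values measure only the spread between these libraries, which may be technical.

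LY6 and LYPD proteins share the LY6/uPAR (LU) domain, a small fold of loops that stick out from a core of disulfide bonds. Most are tied to the outer face of the plasma membrane by a glycosylphosphatidylinositol (GPI) anchor and have no part inside the cell. CD59 stops the assembly of the complement membrane attack complex. LY6E is induced by interferon and alters the entry of several viruses. LY6D and LYPD3 mark stratified squamous epithelium, the tissue type that LUSC resembles. LY6K is a cancer-testis antigen and PSCA was first described in prostate. LY6H, LYPD1, LYPD6 and LYPD6B act on nicotinic acetylcholine receptors, and LYPD6 also acts on Wnt signalling through LRP6.

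LYPD6B (149038107 to 149215262) and LYPD6 (149329985 to 149474138) are neighbours on the plus strand of chromosome 2 (GRCh38), with 114722 bases between them. LYPD1 lies on the minus strand of chromosome 2 (132643286 to 132671579), LYPD3 on chromosome 19 (43460787 to 43465608) and CD59 on chromosome 11 (33703010 to 33736479), both on the minus strand. The start regions of LYPD6 and LYPD6B are shown because these genes lie side by side and were both higher with maspin in the same line, and that of LYPD1 because it was higher in every maspin library of both lines. No window is shown for LY6E, LY6D, LY6K, LY6H and PSCA. Each sequence runs from 250 bases before an annotated start to 50 bases after it (RefSeq, GRCh38.p14), with motif letters in capitals.
LYPD1 (chr2:132670156-132670455, minus strand): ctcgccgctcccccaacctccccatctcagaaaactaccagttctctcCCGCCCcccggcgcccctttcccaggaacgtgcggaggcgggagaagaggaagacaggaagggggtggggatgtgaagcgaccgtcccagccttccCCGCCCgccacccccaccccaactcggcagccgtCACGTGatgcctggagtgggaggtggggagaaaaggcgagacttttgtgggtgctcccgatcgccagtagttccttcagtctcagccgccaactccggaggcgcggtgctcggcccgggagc
LYPD6 (chr2:149330337-149330636, plus strand): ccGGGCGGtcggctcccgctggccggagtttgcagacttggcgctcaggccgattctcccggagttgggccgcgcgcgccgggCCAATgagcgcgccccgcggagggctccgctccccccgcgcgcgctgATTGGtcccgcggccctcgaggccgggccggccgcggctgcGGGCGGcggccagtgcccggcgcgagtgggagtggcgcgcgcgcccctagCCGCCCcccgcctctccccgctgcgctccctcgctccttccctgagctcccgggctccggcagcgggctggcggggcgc
LYPD6B (chr2:149077272-149077571, plus strand): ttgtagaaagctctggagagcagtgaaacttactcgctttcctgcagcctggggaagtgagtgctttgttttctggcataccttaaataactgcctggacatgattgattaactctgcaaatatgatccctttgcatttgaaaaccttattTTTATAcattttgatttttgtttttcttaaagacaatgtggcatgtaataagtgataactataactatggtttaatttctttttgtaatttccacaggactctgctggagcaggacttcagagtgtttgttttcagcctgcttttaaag
The LYPD1 and LYPD6 windows sit at the start of the main (MANE) transcript, whereas the LYPD6B window belongs to another annotated start, 38823 bases away from that of its main transcript. Motifs were searched on both strands, and none of them contains another. The GC box was spelled GGGCGG and the box bound by NF-Y was spelled CCAAT. The E-box was taken as CACGTG, and the core of the TATA box as TATAAA. The site of AP-1 was searched as TGACTCA. The LYPD6 window held 3 GC boxes and 2 CCAAT boxes and was 81.0% GC. The LYPD1 window held 2 GC boxes and 1 E-box and was 67.0% GC. The LYPD6B window held 1 TATAAA and was 36.3% GC, against a median of 58.7% over all windows. Of 35116 windows of the same length, 45.0% held a GC box, 34.6% a CCAAT box, 7.26% an E-box, 11.5% a TATAAA and 4.95% an AP-1 site. A match is a match of letters only. The windows of LYPD3 (2 GC boxes) and CD59 (2 GC boxes and 1 CCAAT box) held motifs of the same kinds.

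The other 5 genes form a group on chromosome 8. PSCA (142670308 to 142682725), LY6K (142700111 to 142705127), LY6D (142784882 to 142786539), LY6E (143017982 to 143023832) and LY6H (143157914 to 143160711) lie within 490 kb of GRCh38.

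Libraries held 39802246 to 54941357 counts of named genes for LK-2 and 50143577 to 65454432 for RERF-LC-AI cells. Libraries of a group differed by more than counting noise (chi-square over its degrees of freedom between 4.70 and 26.5), so none was a copy of another. SERPINB5 was at 1.96 ± 0.0853 CPM (SD, n = 3) in LK2-ctrl and 49.98 ± 1.39 in LK2-maspin, and at 0.205 ± 0.0639 in LC-AI-ctrl and 476 ± 37.9 in LC-AI-maspin. CPM are counts scaled to a common library total, here after TMM scaling within a line unless another scale is named. The markers that define squamous cells were mostly low in both ctrl groups, on the scale of all 12 libraries. SOX2 was at 500 CPM in LK2-ctrl but 0.3903 in LC-AI-ctrl, and TP63 was at 1.18 and 0.640, KRT5 at 0.726 and 0.0426 and KRT14 at 0.0366 and 0.256 CPM. KRT6A was at 1.26 and 0.0965, DSG3 at 4.71 and 1.65 and PKP1 at 0.319 and 8.98 CPM. Of 4 mesenchymal markers, VIM was at 0.590 CPM in LK2-ctrl and 1786 in LC-AI-ctrl, FN1 at 10.9 and 179 and COL1A2 at 0.615 and 31.9, while COL1A1 went the other way, at 15.5 and 6.32. Of the leukocyte markers, PTPRC was at 1.115 and 0.265 CPM, CD3E at 0.0398 and 0.0400 and CD68 at 2.33 and 46.996. In bulk RNA, fewer cells with a transcript and less transcript per cell cannot be told apart.

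The first question was how the family was expressed by each line without maspin, a contrast that the rule for choosing the genes did not use. LK2-ctrl and LC-AI-ctrl cells were compared with edgeR's quasi-likelihood test. All 8 of the 10 genes that passed the filter on low counts differed, 5 being higher in LC-AI-ctrl and 3 in LK2-ctrl. Of the latter, LYPD3 passed the filter only through the LK2-ctrl libraries, where it was higher. Of the 26179 genes tested, 31.6% were higher in LC-AI-ctrl and 32.1% in LK2-ctrl, so most genes differed between the lines as well. This balance, 8407 genes higher in LK2-ctrl and 8283 lower, became 10768 and 6851 with upper-quartile factors and 10778 and 6820 with library size only. Cell line, medium and the separate processing of the tables cannot be told apart here. These values are CPM on the scale of all 12 libraries.

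The tested genes of the chromosome 8 group, LY6E, LY6K and PSCA, were all higher in LC-AI-ctrl. LY6E was 94.5-fold higher there, at 107 ± 4.95 CPM (SD, n = 3) in LC-AI-ctrl against 1.13 ± 0.139 in LK2-ctrl, a log2 difference (LK2-ctrl minus LC-AI-ctrl) of -6.55 (SE 0.10, adjusted p = 8.32e-16, edgeR). LY6K was 66.6-fold higher, at 53.5 against 0.803 CPM (log2 difference -6.04, SE 0.15, adjusted p = 8.10e-14, edgeR). PSCA was at 2.44 against 0.320 CPM (log2 difference -2.91, SE 0.28, adjusted p = 3.11e-07, edgeR). LY6D and LY6H did not pass the filter, and their few reads went the other way. They had 2 and 8 reads over the 3 LC-AI-ctrl libraries and 30 and 29 over the 3 LK2-ctrl libraries. CD59, on chromosome 11, was at 211 CPM in LC-AI-ctrl and 43.4 in LK2-ctrl (log2 difference -2.28, SE 0.09, adjusted p = 2.29e-11, edgeR). LYPD1 was at 4.76 against 1.88 CPM (log2 difference -1.33, SE 0.19, adjusted p = 1.70e-05, edgeR).

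The other LYPD genes were higher in LK-2 cells. LYPD6 was at 33.5 CPM in LK2-ctrl and 2.87 in LC-AI-ctrl (log2 difference 3.55, SE 0.12, adjusted p = 1.46e-12, edgeR). Its neighbour LYPD6B was at 13.05 and 2.91 CPM (log2 difference 2.17, SE 0.14, adjusted p = 5.31e-09, edgeR). LYPD3, a squamous marker, was at 1.08 and 0.0811 CPM (log2 difference 3.69, SE 0.44, adjusted p = 3.49e-06, edgeR), and rested on 12 reads in all in LC-AI-ctrl, so that it passed the filter through the LK2-ctrl libraries. Each of the 8 differences kept its direction and its call under all alternatives run that gave it a value.

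Levels between genes were compared as CPM per kilobase of the main transcript. In LC-AI-ctrl cells the order began with LY6E (94.3 ± 4.38 CPM per kilobase, SD, n = 3), CD59 (27.9 ± 1.70) and LY6K (20.02 ± 0.897), which stood apart from each other in all libraries. PSCA (2.49 ± 0.389) and LYPD6B (2.16 ± 0.331) came next and overlapped. LYPD1 (1.38 ± 0.182) and LYPD6 (0.715 ± 0.0865) followed, while LY6H, LYPD3 and LY6D, all under 0.1, overlapped. In LK2-ctrl cells LYPD6B (9.70 ± 1.09) and LYPD6 (8.36 ± 0.541) led and overlapped, ahead of CD59 (5.74 ± 0.725). LY6E (0.998 ± 0.123) was in place 4, above LYPD3 (0.657 ± 0.167) and LYPD1 (0.544 ± 0.106), which overlapped. PSCA, LY6K, LY6D and LY6H lay between 0.202 and 0.326, each overlapping the next. With the length of all exons in place of the main transcript, LYPD6 came first, CD59 took place 2 and LYPD6B place 3 in LK2-ctrl, while LY6E, CD59 and LY6K kept the top places in LC-AI-ctrl.

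**Figure D1:**
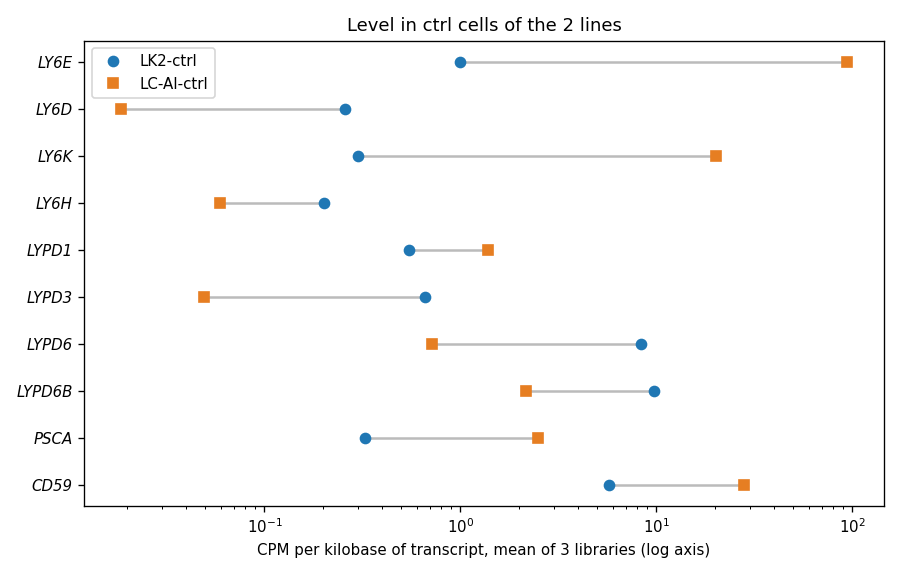
Mean level of each gene in CPM per kilobase of its main transcript (log axis) in the 3 LK2-ctrl libraries (circles) and the 3 LC-AI-ctrl libraries (squares), on the scale of all 12 libraries. LY6E spans from 0.998 to 94.3, whereas LYPD6 lies at 8.36 in LK2-ctrl and 0.715 in LC-AI-ctrl; LY6D and LY6H rest on 2 to 30 reads per group.

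Within the rest of the family, 16 further genes with LU domains were tested between the ctrl groups, and 7 were higher in LC-AI-ctrl, 3 in LK2-ctrl and 6 passed in neither direction (edgeR). The 3 rested on only 20, 3 and 8 reads over the LC-AI-ctrl libraries. The 7 included PLAUR, the urokinase receptor, at 53.3 CPM in LC-AI-ctrl and 3.89 in LK2-ctrl (log2 difference -3.77, adjusted p = 1.15e-13, edgeR). LY6G5B was at 5.99 and 4.41 CPM (log2 difference -0.44, adjusted p = 0.0240, edgeR). LYPD4 was at 3.72 and 4.36 CPM and did not pass (log2 difference 0.23, adjusted p = 0.199, edgeR).

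The second question was what these genes did when maspin was expressed. In LK-2 cells LY6E stood out, while in RERF-LC-AI cells LYPD6, LYPD6B, LYPD3 and CD59 were higher and LY6K and PSCA lower. At an adjusted p under 0.05 (edgeR), 1 of the 10 genes was called higher in LK2-maspin and 0 lower, where 0.373% of 26270 genes were called higher and 0.16% lower. In LC-AI-maspin 4 were called higher and 2 lower of the 8 tested, where 4.01% of 25197 genes were called higher and 6.53% lower. The balance over all genes in RERF-LC-AI cells, 1010 higher and 1645 lower, rested on the scaling, and became 1305 and 1388 with upper-quartile factors and 1408 and 1287 with library size only. Nothing is read from these counts, since the genes were chosen with them known. Of the 10 genes, those tested had a median log2 fold change of 0.02 in LK-2 cells (all genes -0.001) and 0.28 in RERF-LC-AI cells (all genes 0.014). Groups did not overlap for 2 of the 10 genes in LK-2 cells, both higher with maspin, and for 7 of the 10 in RERF-LC-AI cells, 5 higher and 2 lower. All 7 in RERF-LC-AI cells were among the 8 tested there. Over all genes tested, groups did not overlap for 11.9% and 25.1%.

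LY6E had 1.26, 1.31 and 1.07 CPM in the LK2-ctrl libraries (60, 71 and 48 reads) and 5.90, 5.14 and 5.36 CPM in the LK2-maspin libraries (316, 203 and 250 reads). All maspin libraries were higher than all ctrl libraries, and the spread within each group was small beside the gap. The mean went from 1.21 ± 0.129 to 5.47 ± 0.389 CPM (SD, n = 3), or 4.51-fold, with a log2 fold change of 2.17 (SE 0.16). It stayed between 2.09 and 2.23 when any 1 library was left out. In RERF-LC-AI cells, where LY6E was already abundant, its level was 104, 94.5 and 99.1 CPM in ctrl and 105, 112 and 104 in maspin libraries. These groups overlapped, with a log2 fold change of 0.11 (SE 0.05). On the scale of all 12 libraries, LY6E was at 4.81 to 5.46 CPM in LK2-maspin and at 102 to 112 CPM in LC-AI-ctrl, so the groups lay far apart with maspin in LK-2 cells too.

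LY6E is induced by interferon, and a list of other interferon-stimulated genes, chosen with earlier results of these data known, was set beside it. A role of interferon was not tested. Of 39 tested in LK-2 cells, 0 were called (edgeR), with 3 at an unadjusted p under 0.05 (2 higher, 1 lower) and 0 called by DESeq2 or by edgeR's likelihood ratio test. Over all genes tested in LK-2 cells, 0.373% were called higher and 0.16% lower, so 0 of 39 says little. The median log2 fold change of the 39 was 0.04. In RERF-LC-AI cells, where LY6E overlapped, 4 of 38 rose and 3 fell. Over all genes tested there, 4.01% were called higher and 6.53% lower. IFITM2, a restriction factor for virus entry, fell from 54.8 to 34.7 CPM (log2 fold change -0.66, adjusted p = 5.11e-09, edgeR), and IFIT2, which binds foreign RNA, fell from 17.8 to 11.4 CPM (-0.65, adjusted p = 3.67e-06, edgeR). PARP14 rose from 64.6 to 77.05 CPM (0.25, adjusted p = 8.98e-04, edgeR) and IFI35 from 23.4 to 28.3 CPM (0.27, adjusted p = 0.00532, edgeR). Both of these calls were lost with all 12 libraries in 1 fit (adjusted p = 0.0533 and 0.295, edgeR).

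The genes next to LY6E on chromosome 8 were near the limit of detection in LK-2 cells. LY6E-DT, a noncoding transcript on the opposite strand whose annotation shares 466 bases with that of LY6E, went from 0.111 ± 0.0324 to 0.289 ± 0.0710 CPM (SD, n = 3; log2 fold change 1.37, SE 0.53, adjusted p = 0.630, edgeR). The libraries were stranded but the sources used here do not say if counting used the strand, so reads of both genes in the shared stretch may not be told apart. CDC42P3 was at 0.248 and 0.303 CPM and C8orf31 at 0.268 and 0.256 CPM in LK2-ctrl and LK2-maspin, and neither passed. LOC105375795 was not tested.

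The further genes of the chromosome 8 group were low in LK-2 cells and their groups overlapped. LY6K was at 0.546 to 1.11 CPM in LK2-ctrl and 0.405 to 0.672 in LK2-maspin (log2 fold change -0.58, SE 0.34). PSCA was at 0.210 to 0.424 and 0.203 to 0.579 CPM (0.22, SE 0.48). LY6D, with 10, 8 and 12 reads in ctrl and 16, 2 and 18 in maspin libraries, and LY6H, with 11, 4 and 14 against 11, 10 and 4, allow no statement on a change. The log2 fold changes of PSCA, LY6D and LY6H changed sign when single libraries were left out (from -0.14 to 0.51, from -0.17 to 0.72 and from -0.58 to 0.26).

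In RERF-LC-AI cells LY6K and PSCA were lower with maspin. LY6K was at 47.2, 50.3 and 51.6 CPM in LC-AI-ctrl and 41.6, 44.5 and 41.1 CPM in LC-AI-maspin, so the groups did not overlap. The mean went from 49.7 ± 2.24 to 42.4 ± 1.85 CPM (SD, n = 3), with a log2 fold change of -0.23 (SE 0.06). PSCA was at 2.07, 2.68 and 2.06 CPM in ctrl and 1.77, 1.30 and 1.38 in maspin libraries. The mean went from 2.27 ± 0.354 to 1.48 ± 0.254 CPM (SD, n = 3), with a log2 fold change of -0.62 (SE 0.19). The call of LY6K was lost without LC-AI-ctrl replicate 3 (log2 fold change -0.20) or LC-AI-maspin replicate 3 (-0.21), and with all 12 libraries in 1 fit (-0.23). That of PSCA was lost without LC-AI-ctrl replicate 2 (-0.48), LC-AI-maspin replicate 2 (-0.53) or LC-AI-maspin replicate 3 (-0.58), with library size only (-0.58) and with all 12 libraries in 1 fit (-0.62). LY6H had 0, 2 and 6 reads in ctrl and 2, 8 and 2 in maspin libraries, and LY6D had 2 reads in 1 ctrl library and 0 elsewhere.

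**Figure D2:**
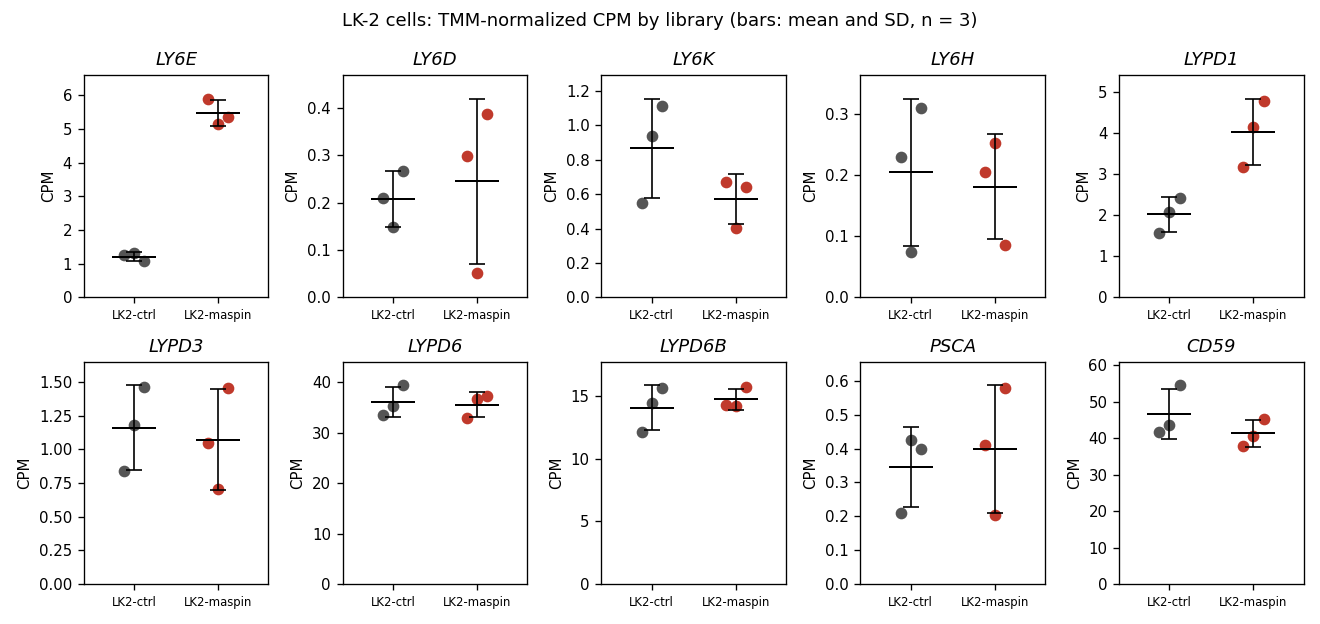
CPM of each of the 10 genes in the 3 LK2-ctrl libraries (grey) and the 3 LK2-maspin libraries (red), each panel with its own axis from 0, with a line at the mean and bars for the SD (n = 3). Only LY6E and LYPD1 have all maspin libraries above all ctrl libraries.

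**Figure D3:**
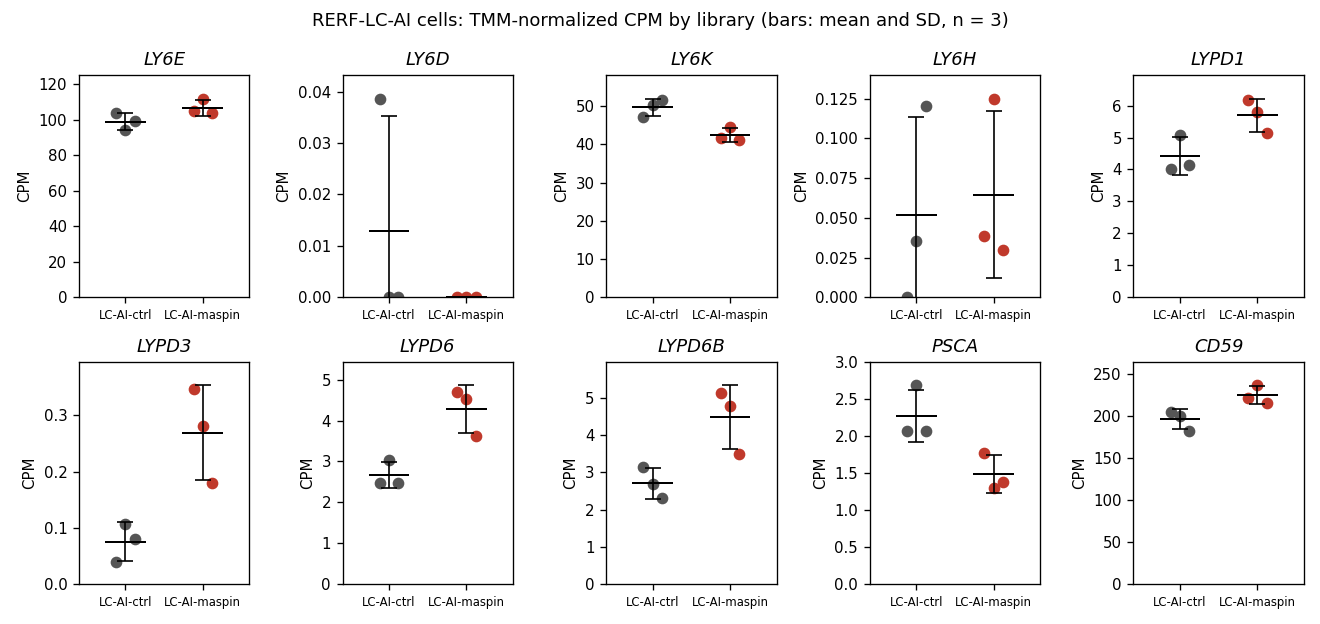
CPM of each of the 10 genes in the 3 LC-AI-ctrl libraries (grey) and the 3 LC-AI-maspin libraries (red), each panel with its own axis from 0, with a line at the mean and bars for the SD (n = 3). LYPD1, LYPD3, LYPD6, LYPD6B and CD59 have all maspin libraries above all ctrl libraries, and LY6K and PSCA have them below.

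LYPD6 and LYPD6B, the neighbours on chromosome 2, were both higher in LC-AI-maspin cells. LYPD6 was at 2.47, 3.04 and 2.48 CPM in LC-AI-ctrl and 4.70, 4.52 and 3.62 in LC-AI-maspin (128, 170 and 124 against 244, 289 and 241 reads). Its mean went from 2.67 ± 0.322 to 4.28 ± 0.580 CPM (SD, n = 3), with a log2 fold change of 0.68 (SE 0.15). LYPD6B was at 3.13, 2.68 and 2.30 CPM in ctrl and 5.13, 4.78 and 3.50 in maspin libraries. Its mean went from 2.70 ± 0.413 to 4.47 ± 0.858 CPM (SD, n = 3), with a log2 fold change of 0.72 (SE 0.16). For both genes every maspin library exceeded every ctrl library, with the lowest maspin value in replicate 3. The genes are paralogs, and reads that fit both may be shared out by the counting.

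In LK-2 cells, where both genes were higher to begin with, they hardly differed between the groups. LYPD6 was at 36.1 ± 2.998 CPM in LK2-ctrl and 35.6 ± 2.41 in LK2-maspin (SD, n = 3; log2 fold change -0.02, SE 0.08), and LYPD6B at 14.04 ± 1.78 and 14.7 ± 0.833 CPM (0.07, SE 0.11). The groups overlapped for both. Of the genes beside or between the pair, none that was tested passed in either line. MMADHC, which follows LYPD6 and serves vitamin B12 metabolism, was at 106 and 102 CPM in LC-AI-ctrl and LC-AI-maspin (log2 fold change -0.05, adjusted p = 0.638, edgeR). KIF5C, a kinesin gene before LYPD6B, was at 0.426 and 0.257 CPM there (-0.74, adjusted p = 0.343, edgeR) and at 81.5 and 94.4 CPM in LK2-ctrl and LK2-maspin (0.21, adjusted p = 0.503, edgeR). LOC101928553, LOC105373677, LOC105373679 and MIR9899 were below 1 CPM in all groups. LOC105373679 and MIR9899 were tested in neither line, and LOC105373677 only in LK-2 cells.

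LYPD1 was higher in every maspin library than in every ctrl library of its line in both lines. In LK-2 cells it was at 1.57, 2.09 and 2.42 CPM in ctrl and 3.17, 4.15 and 4.78 in maspin libraries, with means of 2.03 ± 0.426 and 4.04 ± 0.812 CPM (SD, n = 3). This is 1.99-fold, a log2 fold change of 0.99 (SE 0.21). In RERF-LC-AI cells it was at 4.02, 5.09 and 4.15 CPM in ctrl and 6.17, 5.78 and 5.13 in maspin libraries, with means of 4.42 ± 0.586 and 5.69 ± 0.522 CPM (SD, n = 3). The log2 fold change there was 0.36 (SE 0.13), and the lowest maspin library was close to the highest ctrl library. LYPD1 was not called in either line. In LK-2 cells it was called in 7 of 15 alternatives, among them the fits without LK2-ctrl replicate 3 (log2 fold change 1.13) and without LK2-maspin replicate 1 (1.14), and in RERF-LC-AI cells in 2 of 15, among them the fit without LC-AI-ctrl replicate 2 (0.48).

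LYPD3 rested on few reads in RERF-LC-AI cells. It had 2, 6 and 4 reads in the LC-AI-ctrl and 18, 18 and 12 in the LC-AI-maspin libraries, 0.0753 ± 0.0345 and 0.269 ± 0.0840 CPM (SD, n = 3), with a log2 fold change of 1.78 (SE 0.59). No ctrl library reached the count minimum of 10, so the gene passed the filter through the maspin libraries. Its call held in only 4 of the 12 alternatives that tested it, and it was lost without any 1 of the LC-AI-ctrl libraries (log2 fold change 1.48, 2.13 and 1.83 without replicates 1, 2 and 3) and without LC-AI-maspin replicate 1 (1.58) or 3 (2.01). In LK-2 cells LYPD3 was at 1.16 ± 0.314 CPM in ctrl and 1.07 ± 0.376 in maspin (SD, n = 3; log2 fold change -0.11, SE 0.31), with overlapping groups.

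CD59, the brake on the complement attack complex, did not overlap between the groups in RERF-LC-AI cells. There it was at 205, 201 and 183 CPM in ctrl and 222, 237 and 216 in maspin libraries, with means of 196 ± 11.9 and 225 ± 10.6 CPM (SD, n = 3). Every maspin library was higher, with a log2 fold change of 0.20 (SE 0.05). The call was lost without LC-AI-ctrl replicate 3 (0.15) or LC-AI-maspin replicate 2 (0.16), and with all 12 libraries in 1 fit (0.20). In LK-2 cells CD59 was at 41.9, 43.8 and 54.5 CPM in ctrl and 37.9, 40.8 and 45.4 in maspin libraries, which overlapped (log2 fold change -0.18, SE 0.10). With the replicate number as a block, a pairing that the labels do not state, it was called lower (-0.17, SE 0.05).

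**Figure D4:**
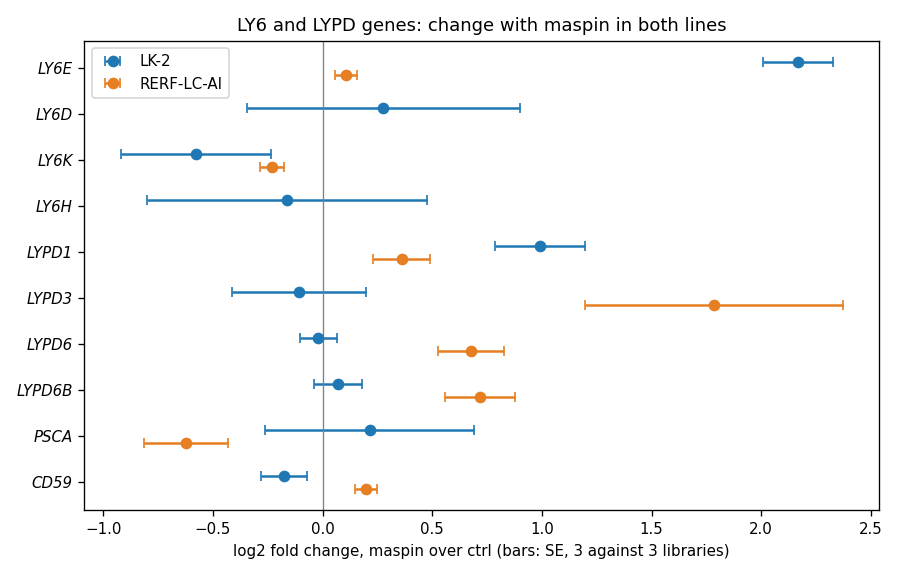
Log2 fold change of maspin over ctrl for each gene and both lines, with bars for the SE (3 against 3 libraries). LY6E lies at 2.17 for LK-2 and 0.11 for RERF-LC-AI, whereas LYPD6 and LYPD6B lie near 0 for LK-2 and at 0.68 and 0.72 for RERF-LC-AI; LY6D and LY6H were not tested in RERF-LC-AI cells.

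The third question was whether the wider family and the systems these proteins work with moved too. The lists were chosen with earlier results of these data known, so counts of calls in them are a description. Over all genes tested, 0.373% were called higher and 0.16% lower in LK-2 cells, and 4.01% and 6.53% in RERF-LC-AI cells (edgeR). At the LK-2 shares, 0 calls in a short list say little. No share of all genes at an unadjusted p under 0.05 is given, so counts at that threshold have nothing to be set against. Of the other LU domain genes, 0 of 15 tested were called in LK-2 cells and 0 of 14 in RERF-LC-AI cells (edgeR). At an unadjusted p under 0.05 there was 1 in each line, and DESeq2 and the likelihood ratio test called PLAUR lower in RERF-LC-AI cells. PLAUR was at 49.5, 50.6 and 48.5 CPM in LC-AI-ctrl and 44.05, 46.1 and 42.7 in LC-AI-maspin, without overlap (log2 fold change -0.16, SE 0.05, adjusted p = 0.0510, edgeR). In LK-2 cells it was at 4.19 and 4.10 CPM. LY6G5B had a log2 fold change of 0.21 in both lines (adjusted p = 0.979 in LK-2, 0.314 in RERF-LC-AI cells, edgeR), and LYPD4 one of 0.07 and -0.11 (adjusted p = 0.9999 and 0.758, edgeR).

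The GPI anchor is built and trimmed by enzymes shared by the whole family. Of 32 such genes, 0 were called in LK-2 cells (edgeR), with 0 at an unadjusted p under 0.05 and 0 by DESeq2. In RERF-LC-AI cells 2 rose and 5 fell, where 4.01% of all genes tested were called higher and 6.53% lower. PGAP2, which remodels the lipid of the anchor, rose from 14.8 ± 1.23 to 19.9 ± 0.745 CPM (SD, n = 3; log2 fold change 0.43, adjusted p = 2.28e-04, edgeR), and PIGO, which adds ethanolamine phosphate, from 44.9 to 53.2 CPM (0.24, adjusted p = 0.00253, edgeR). PGAP4 fell from 27.4 to 22.1 CPM (-0.31, adjusted p = 0.00177, edgeR) and DPM2, a subunit of the mannose donor synthase, from 69.3 to 59.0 CPM (-0.23, adjusted p = 0.00508, edgeR). The call of DPM2 was lost without LC-AI-ctrl replicate 2 (-0.16) or LC-AI-maspin replicate 3 (-0.20), and with all 12 libraries in 1 fit (adjusted p = 0.112, edgeR). The median log2 fold change of the 32 genes was 0.05 in RERF-LC-AI cells, against 0.014 over all genes.

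Among the partners of LU proteins, 7 were tested in each line. In RERF-LC-AI cells 3 fell and 0 rose (edgeR; 0 rose at an unadjusted p under 0.05 or by DESeq2). Over all genes tested there, 6.53% were called lower and 4.01% higher. The list is short and was chosen with earlier results known, so nothing is read from this count. ITGB4, an integrin subunit that binds laminin and is listed for LYPD3, was at 136, 86.8 and 107 CPM in LC-AI-ctrl and 46.3, 36.7 and 37.5 in LC-AI-maspin. It fell from a mean of 110 ± 24.8 to 40.2 ± 5.33 CPM (SD, n = 3; log2 fold change -1.46, adjusted p = 9.51e-12, edgeR). LAMB1, a laminin chain, fell from 87.8 to 63.0 CPM (-0.48, adjusted p = 1.65e-07, edgeR). LRP5, a Wnt co-receptor listed for LYPD6, fell from 136 to 110 CPM (-0.30, adjusted p = 8.06e-05, edgeR). In LK-2 cells 0 of 7 were called (edgeR), with 3 lower at an unadjusted p under 0.05, and DESeq2 and the likelihood ratio test called FZD8 lower.

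Of the nicotinic acetylcholine receptor subunits, on which LYPD1, LYPD6 and LYPD6B act, 0 of 13 were called in LK-2 cells (edgeR; 0 at an unadjusted p under 0.05 and 0 by DESeq2). In RERF-LC-AI cells 1 of 12 fell, CHRNB1, the muscle-type beta subunit, from 33.7 to 28.9 CPM (log2 fold change -0.23, adjusted p = 0.0212, edgeR). Its call was lost without LC-AI-ctrl replicate 3 (-0.23), LC-AI-maspin replicate 2 (-0.18) or LC-AI-maspin replicate 3 (-0.19). It was also lost with upper-quartile factors (adjusted p = 0.0522, edgeR), library size only (0.0941) and all 12 libraries in 1 fit (0.135). Of the complement genes around CD59, 0 of 14 were called in LK-2 cells, and 0 of 13 in RERF-LC-AI cells (edgeR), with 1 lower in LK-2 cells and 2 higher and 1 lower in RERF-LC-AI cells at an unadjusted p under 0.05. DESeq2 called C7 lower in LK-2 cells and none in RERF-LC-AI cells.

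Genes of squamous differentiation, the setting of LY6D and LYPD3, were called in both lines. In LK-2 cells 2 of 27 rose and 0 fell (edgeR), where 0.373% of all genes tested were called higher and 0.16% lower. At an unadjusted p under 0.05, 8 were higher and 0 lower, while DESeq2 called 4 higher and 0 lower and the likelihood ratio test 5 higher and 0 lower. Over all genes, DESeq2 called 191 higher and 81 lower, and the likelihood ratio test 220 and 94. Nothing is read from these counts, since the list was chosen with earlier results known. KRT5, the basal keratin, rose from 0.779 ± 0.198 to 7.44 ± 1.74 CPM (SD, n = 3; log2 fold change 3.25, adjusted p = 4.65e-05, edgeR), and SFN (stratifin) from 38.9 to 53.5 CPM (0.46, adjusted p = 0.0137, edgeR). The call of SFN was lost without LK2-ctrl replicate 2 (0.49), LK2-maspin replicate 2 (0.41) or LK2-maspin replicate 3 (0.45). In RERF-LC-AI cells 2 of 23 rose and 3 fell, where 4.01% of all genes tested were called higher and 6.53% lower. FLG (filaggrin) rose from 1120 to 1611 CPM (0.52, adjusted p = 4.38e-06, edgeR) and the desmosomal cadherin DSC2 from 4.88 to 7.67 CPM (0.65, adjusted p = 2.02e-04, edgeR). SFN fell from 79.8 to 62.9 CPM (-0.34, adjusted p = 1.64e-05, edgeR) and the desmosomal plaque gene DSP from 47.9 to 35.6 CPM (-0.43, adjusted p = 4.92e-05, edgeR).

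**Figure D5:**
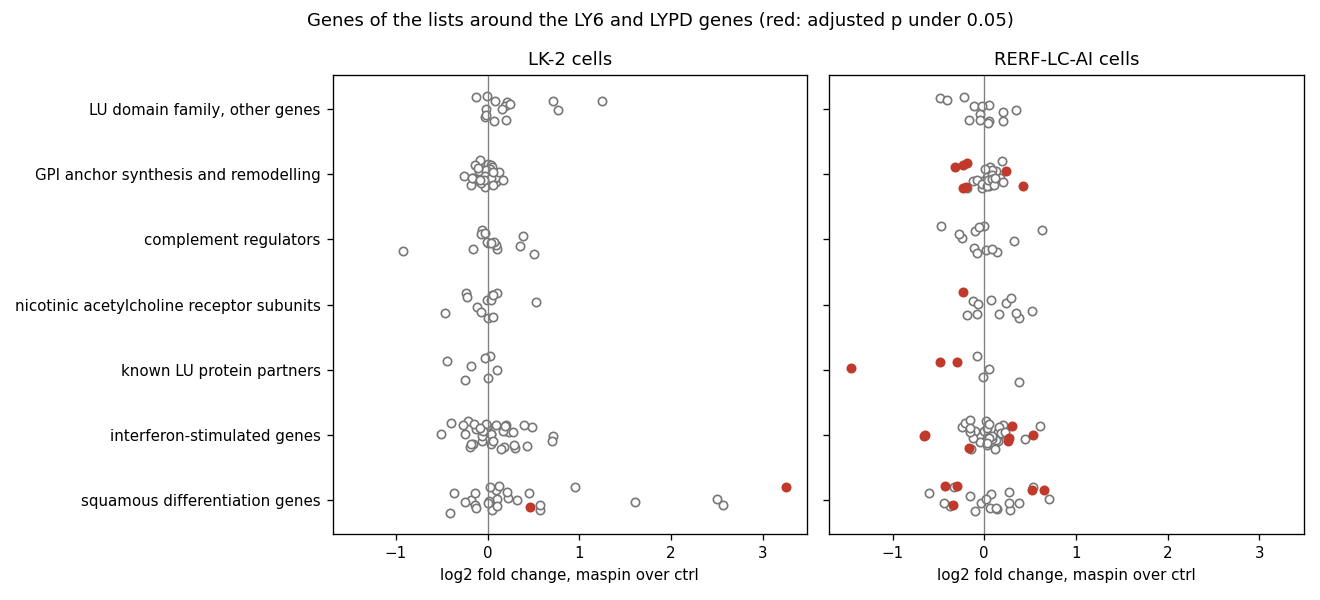
Log2 fold change of maspin over ctrl for the tested genes of each list, without the 10 genes themselves, in LK-2 (left) and RERF-LC-AI cells (right), 1 point per gene, red where the adjusted p was under 0.05 (edgeR). In LK-2 cells only KRT5 (3.25) and SFN (0.46) are red, and in RERF-LC-AI cells ITGB4 lies farthest from 0, at -1.46.

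The genes whose pattern over the 12 libraries was most like that of a family gene were sought among 17829 genes with a mean of at least 1 CPM, by Pearson r of log2 CPM centred within each line. These r values include the difference between maspin and ctrl libraries and are a description. For LY6E they were the glutamine transporter SLC1A5 (r = 0.968), the translation termination factor GSPT2 (0.966) and KRT5 (0.965), which had log2 fold changes of 0.54, 0.66 and 3.25 in LK-2 cells. KRT5 was not tested in RERF-LC-AI cells. On the scale of all 12 libraries it was at 0.0426 CPM in LC-AI-ctrl and 0.0866 in LC-AI-maspin, so that part of its r rests on few reads. For LYPD1 they were the noncoding LINC01239 (0.976), the p38 kinase activator MAP2K6 (0.964) and FAM189A1 (0.951), with 0.81, 0.72 and 1.11 for LK-2 and 0.48, 0.42 and 0.21 for RERF-LC-AI. For LYPD6 they were the hyaluronan synthase HAS2 (0.957) and the transcription factors SOX4 (0.953) and SP8 (0.950), with 1.21, 0.75 and 0.93 in RERF-LC-AI cells. For LYPD6B they were N4BP3 (0.982), GOLGA2P10 (0.963) and SDR16C5 (0.957), with 0.64, 0.35 and 1.05 there. All 6 of the latter lay between -0.04 and 0.11 in LK-2 cells.

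The differences between maspin and ctrl cells were compared directly between the lines, as an interaction over all 12 libraries, for listed genes other than the 10. SERPINB5 was at 49.98 CPM in LK2-maspin and 476 in LC-AI-maspin, and each group was 1 pool of clones. Line, medium, processing, maspin level and pool cannot be told apart in such a comparison. Of 28123 genes tested, 1.76% differed at an adjusted p under 0.05 (edgeR). ITGB4, LAMB1, DSP, SFN and C7 were among them. The transcript of LRP5 fell in RERF-LC-AI cells and was at 195 and 196 CPM in LK-2 cells, but the difference between the lines did not pass (log2 difference 0.31, adjusted p = 0.0614, edgeR).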

How the data were processed

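Poly(A) RNA of the 12 samples was made into stranded libraries for Illumina sequencing. Per the labels and methods, the authors used Trimmomatic 0.39 for trimming and BWA 0.7.17 for mapping to GRCh38.p13, with SAMtools 1.12 (LK-2) or 1.10 (RERF-LC-AI), and deposited raw counts of mapped reads per gene, 1 table per line. The sources used here do not name the counting tool. The tables also hold signal columns, in which the authors scaled the counts by library total or with edgeR 3.16.5, and these were not used. Among counts from 1 to 9, 23.7 to 26.0% were odd, so most counts include both reads of a pair. The 646 rows without a gene symbol (0.292 to 0.416% of counts) were left out.

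Counts were tested with edgeR 4.0.16 (quasi-likelihood F test, TMM factors, default filter with a minimum count of 10 and total of 15, Benjamini-Hochberg adjustment at 0.05) in R 4.3.3, within each line, between the ctrl groups, and as an interaction over all 12 libraries. SE is the log2 fold change over the square root of F. The fits within each line and between the ctrl groups were tested on simulated data, while the interaction and the alternatives were not. Alternatives were edgeR's likelihood ratio test, DESeq2 1.42.0, other scaling factors and filters, the replicate number as a block, 1 fit of all 12 libraries, and leaving out each library.

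The 10 genes and the lists around them were chosen with earlier results of these data known. Named are the 10 genes, the 3 most abundant other LU domain genes, up to 4 called genes of each other list per line, the 3 genes most alike to each of LY6E, LYPD1, LYPD6 and LYPD6B, SERPINB5, and 2 neighbours on each side of LY6E, LYPD6 and LYPD6B. FZD8 and C7 were named after their values were seen. Of the leukocyte markers, 1 is not reported here. Of 37 LU domain genes listed, 35 have a row. The tables hold no coordinates, so positions and transcript lengths come from GENCODE 44 on GRCh38, and start regions from RefSeq. Figures were drawn with matplotlib 3.10.9 in Python 3.11.15.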

Additional observations from a re-analysis of the deposited data

Results flagged for a closer look

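The change from ctrl to maspin cells differed between the lines, by the interaction test of edgeR, for 5 listed genes. Line, medium, processing, maspin level and pool of clones cannot be told apart in it. The difference of the log2 fold changes, LK-2 minus RERF-LC-AI, was 1.21 for ITGB4 (adjusted p = 5.47e-04), 0.58 for LAMB1 (adjusted p = 7.62e-04), 0.80 for SFN (adjusted p = 9.18e-05), 0.44 for DSP (adjusted p = 0.0308) and -1.55 for C7 (adjusted p = 0.0160). SFN had a log2 fold change of 0.46 in LK-2 but -0.34 in RERF-LC-AI cells. C7, a component of the complement attack complex, was at 2.29, 2.58 and 3.24 CPM in LK2-ctrl and 1.19, 1.22 and 1.84 in LK2-maspin, and at 0.599, 0.590 and 0.481 CPM in LC-AI-ctrl and 1.02, 0.766 and 0.811 in LC-AI-maspin. It was called in neither line alone (adjusted p = 0.154 and 0.194, edgeR).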

How the results depend on the processing

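Among the alternatives run, no called result reversed. All 119 alternative values of the 8 genes that differed between the ctrl groups kept their direction and call. Without 1 library, 8 to 10 of the 10 genes differed between the ctrl groups, and 15587 to 16564 of all genes. Of the 10, 5 were higher in LC-AI-ctrl each time and 3 to 5 in LK2-ctrl. The added calls were of LY6D or LY6H, higher in LK2-ctrl. The calls within lines depended more on the setting. For LK-2 cells, the 140 genes called became 314 with the likelihood ratio test, 272 with DESeq2 and 251 with all 12 libraries in 1 fit, and ranged from 50 (without LK2-ctrl replicate 2) to 199 with 1 library left out. There were 52 without LK2-maspin replicate 2 and 82 without LK2-maspin replicate 3. LU domain genes called in LK-2 cells went from 1, LY6E, to 2, with LYPD1, under the likelihood ratio test, DESeq2, no filter and the fit of all 12 libraries, and were 1 to 2 with 1 library left out. For RERF-LC-AI cells, the 2655 genes called became 1163 with all 12 libraries in 1 fit, and 1764 (without LC-AI-maspin replicate 3) to 2594 with 1 library left out. The 6 LU domain genes became 2 and 3 to 5. LYPD3 moved from 1.78 to 2.13 without LC-AI-ctrl replicate 2. Of the alternative values of other listed genes, 14 lost their call and 256 did not.

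With the replicate number as a block, 1190 genes were called in LK-2 cells (693 higher, 497 lower) and 4081 in RERF-LC-AI cells (1598 higher, 2483 lower). Of the LU domain genes the block called 3 in LK-2 cells, adding LYPD1 (higher) and CD59 (lower), and 8 in RERF-LC-AI cells (5 higher, 3 lower), LYPD1 among them. The deviations of equally numbered libraries correlated over all genes tested at 0.181, 0.0190 and 0.192 in LK-2 and at 0.0587, 0.0689 and 0.0111 in RERF-LC-AI cells, the measure on which the pairing was decided. Over genes with a mean log2 CPM over 3 they correlated at 0.745, 0.115 and 0.752 (LK-2) and at 0.369, 0.389 and 0.203 (RERF-LC-AI). Every library correlated best with the one of its own number, a hint from the data and not the design. Depth limits LY6D, LY6H and, in RERF-LC-AI cells, LYPD3, which had at most 18 reads in a library.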
